A study of Mus musculus with 6 samples.

Results

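The 31 genes described here are the tumour suppressor p53 (Trp53), its main regulators and a set of its widely used target genes. They were taken by symbol from a list of pathway members, and all 31 were found among the 53458 genes with a transcript in the deposited tables. RNA had been sequenced from leukemic blasts of mice with acute myeloid leukemia. The G643W libraries had the genotype Cebpa-/p30; Asxl1G643W/G643W, with the change named G643W on both Asxl1 alleles (n = 3), and the WT libraries had the genotype Cebpa-/p30; Asxl1WT (n = 3). All 6 libraries thus carried the Cebpa-/p30 background, in which one Cebpa allele is lost and the other encodes the short p30 isoform, and all mice were of the strain C57/BL6. Blasts had been sorted from bone marrow by flow cytometry, keeping CD45.2+ cells that were low for the myeloid markers Mac1 and Gr1 and leaving out cells with Ter119, CD3 or B220. The labels do not state the age of the mice, how the leukemias were started or the state of the Trp53 alleles. The labels number the libraries within a genotype without saying that they came from separate leukemias, so p-values rest on the spread from library to library, which may be partly technical.

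p53 is a transcription factor that is held low by Mdm2, a ubiquitin ligase, and by its partner Mdm4, and that is released by DNA damage, oncogene signalling and ribosomal stress. It then raises genes that halt the cell cycle, start mitochondrial apoptosis, expose death receptors, repair DNA and shift metabolism, along with Mdm2 itself, which closes a feedback loop. Much of its output is set at the level of p53 protein and its modification, which RNA levels do not show. ASXL1, which works with the deubiquitinase BAP1 on chromatin, is a recurrent mutation target in myeloid disease.

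p53 binds DNA as a tetramer at response elements made of a pair of decamers. The consensus decamer, which reads the same on both strands, was searched with no mismatch in RefSeq promoter windows of GRCm38.p6, each of 300 bases from 250 bases before to 50 bases after an annotated start. Of the 31 genes, 23 had a window, and 11 of these 23 (47.8%) held at least 1 decamer, against 2582 of 27025 genes overall (9.55%). These 11 were Gadd45a, Bax, Aen, Ei24, Sesn1, Mdm2, Ccng1, Trp53, Ppm1d, Polk and Cdkn1a. A match is a string of letters and was not tested for binding, and since known target genes were listed, the share describes the list. Windows of 4 genes are shown here because the text returns to their genes, with each decamer match in capitals and the sequence 5′ to 3′ on the gene's strand. The Bax window is chr7:45466849-45467148 (minus strand), the Aen window is chr7:78895677-78895976 (plus strand), the Sesn1 window is chr10:41887189-41887488 (plus strand) and the Cdkn1a window, at its upstream start, is chr17:29090729-29091028 (plus strand).
Bax: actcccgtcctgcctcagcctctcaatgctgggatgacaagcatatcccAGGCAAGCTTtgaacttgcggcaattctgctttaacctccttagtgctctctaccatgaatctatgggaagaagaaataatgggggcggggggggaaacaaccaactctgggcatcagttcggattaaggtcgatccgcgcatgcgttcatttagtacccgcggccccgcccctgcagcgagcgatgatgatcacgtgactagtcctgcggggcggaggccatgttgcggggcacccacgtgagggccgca
Aen: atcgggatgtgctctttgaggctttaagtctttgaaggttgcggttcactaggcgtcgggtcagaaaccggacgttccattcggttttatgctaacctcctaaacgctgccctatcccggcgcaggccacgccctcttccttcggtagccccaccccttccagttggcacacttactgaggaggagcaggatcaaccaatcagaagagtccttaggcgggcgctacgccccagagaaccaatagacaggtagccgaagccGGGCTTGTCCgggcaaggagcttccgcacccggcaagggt
Sesn1: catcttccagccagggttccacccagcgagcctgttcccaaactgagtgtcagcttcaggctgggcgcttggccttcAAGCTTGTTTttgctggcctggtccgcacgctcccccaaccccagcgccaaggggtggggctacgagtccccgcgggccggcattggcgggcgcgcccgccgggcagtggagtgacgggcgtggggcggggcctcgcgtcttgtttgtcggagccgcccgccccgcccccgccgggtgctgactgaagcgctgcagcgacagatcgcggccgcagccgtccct
Cdkn1a: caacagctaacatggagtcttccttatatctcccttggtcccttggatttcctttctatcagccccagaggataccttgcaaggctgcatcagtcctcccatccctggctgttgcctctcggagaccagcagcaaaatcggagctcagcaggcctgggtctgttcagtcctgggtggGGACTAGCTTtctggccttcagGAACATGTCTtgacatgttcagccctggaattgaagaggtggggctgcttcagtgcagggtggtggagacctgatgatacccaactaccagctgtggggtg
The Bax match begins 201 bases before the start, the Sesn1 match 173 bases before it, and the Aen match at base 10 after it. The Cdkn1a window holds 2 matches, of which the second begins 51 bases before the upstream start and 2841 bases before the start of Cdkn1a-201, which took 83.2% to 91.0% of the gene's estimated reads in G643W and 93.4% to 97.7% in WT libraries. None of the 3 windows of Bbc3 held a decamer, which says only that these letters are not in those windows.

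Libraries held between 61167075 and 101189225 estimated reads, and 30 of the 31 genes had enough reads to be tested. Levels below are CPM, reads relative to library size after scaling with edgeR's TMM factors, except where TPM, which is also scaled to transcript length, is named. Asxl1 itself had a mean TPM of 16.5 ± 3.36 in G643W and 5.93 ± 1.95 in WT blasts (SD, n = 3 each). On counts its log2 difference was 0.95 with an SE of 0.27 (edgeR adjusted p = 0.454). These levels do not check the G643W change itself. Genes of the cell types that the sort leaves out by CD3, Ter119 or B220 were low. The 7 T cell genes summed to 8.77, 14.5 and 15.5 CPM in G643W and 5.73, 1.67 and 8.85 CPM in WT libraries, with Cd3e at most 0.24 CPM. Summed CPM was 6.07, 6.34 and 16.1 in G643W and 4.15, 3.04 and 1.10 in WT libraries for 8 erythroid genes, and 23.3 to 36.1 in G643W and 34.7 to 38.7 in WT libraries for 6 B cell genes. Neutrophil genes were not low, although the sort kept cells low for Mac1 and Gr1. Summed CPM of 15 neutrophil genes was 18191, 152898 and 85797 in G643W libraries 1, 2 and 3, against 17492, 21675 and 60395 in WT libraries 1, 2 and 3. Neutrophil genes thus varied widely within each genotype. Summed CPM of 11 monocyte genes was 4158, 2910 and 3961 in G643W, against 6619, 5415 and 5245 in WT blasts. Dendritic cell genes (8 genes) summed to 57.7, 49.8 and 62.8 CPM in G643W, against 388, 401 and 215 CPM in WT libraries. In 4 of 8 every G643W library was below every WT library, against 8.89% of all genes. The edgeR test described below called 1 of 8, H2-Ab1, lower, where it called 0.121% of all genes in either direction. Blast and progenitor genes (8 genes) summed to 12554, 1433 and 4838 CPM in G643W, against 2042, 6726 and 9635 CPM in WT libraries. The part of these cell contents in the differences described below was not tested. In such bulk samples fewer cells of a type and less RNA per cell cannot be told apart.

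No gene of the p53 list passed the test between genotypes. edgeR's quasi-likelihood test with Benjamini-Hochberg adjustment over 20654 genes called 0 of the 30 tested genes at an adjusted p under 0.05, where it called 0.121% of all genes. At an unadjusted p under 0.05 there were 6 of 30 (Bbc3, Sesn1, Bax, Zmat3, Ddb2 and Cd82), against 9.66% of all genes. DESeq2 called 1 of 30 (Bbc3), against 2.07% of all genes. In CPM, the G643W and WT libraries did not overlap in 5 of 30 genes, against 15.9% of all genes. Ddb2 was above in every G643W library, where 7.05% of all genes were above in that way. Bbc3, Aen, Sesn1 and Zmat3 were below in every G643W library, where 8.89% of all genes were below in that way. This set depends on the measure. In TPM, Ddb2, Bbc3 and Sesn1 stayed apart and Aen and Zmat3 overlapped. Mdm4 and Rrm2b were then above in every G643W library, and the share of all genes apart in TPM was not counted. The log2 difference of G643W over WT was positive for 13 (49.2% of all genes were positive) and negative for 17 genes, with a median of -0.10 beside -0.01 over all genes, so the list did not stand to one side as a whole. Relative to each gene's mean over the 6 libraries, the median log2 CPM of the list was -0.04, -0.06 and 0.09 in G643W libraries 1 to 3 and -0.09, -0.23 and 0.10 in WT libraries 1 to 3.

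**Figure D1:**
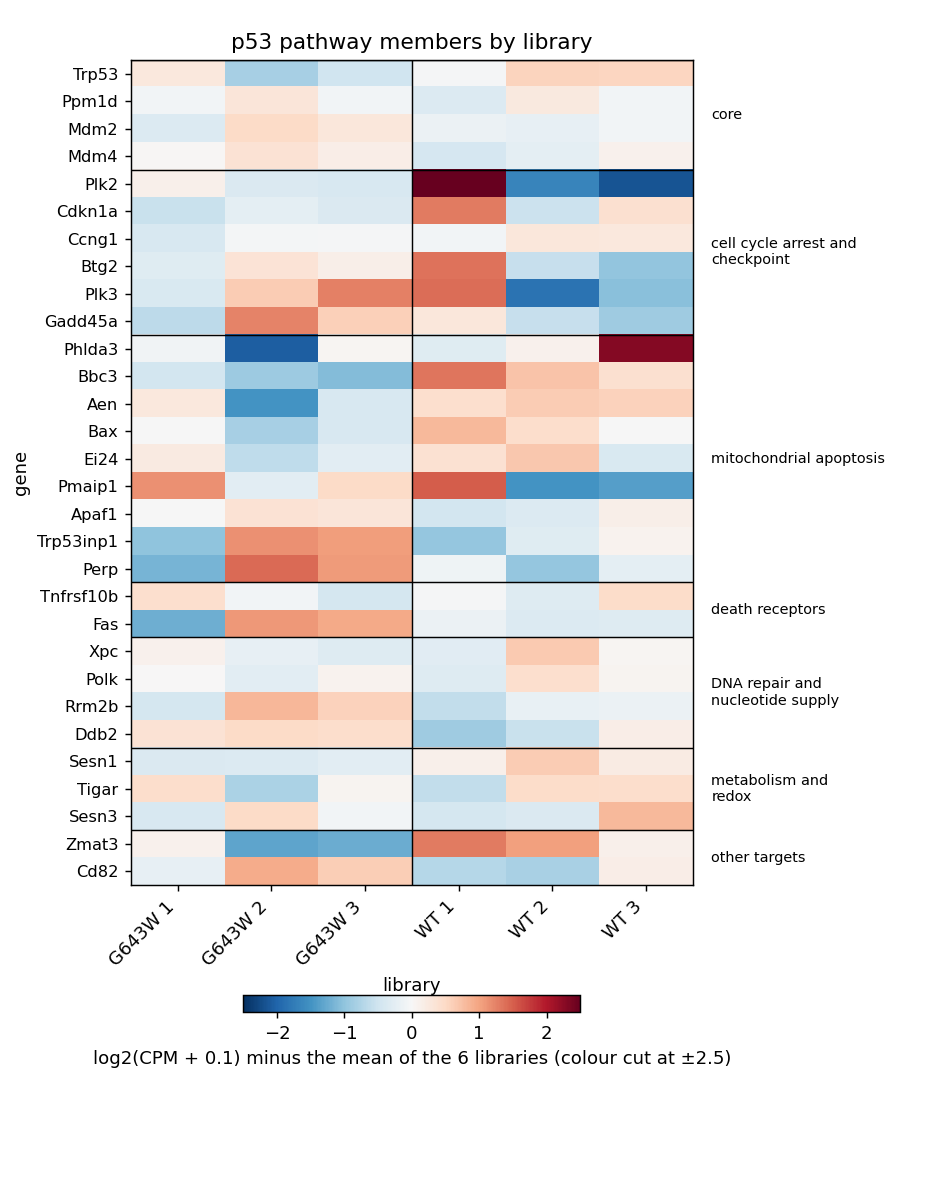
Heat map of the 30 tested genes (rows, grouped by role) in the 6 libraries (columns, G643W left of WT), coloured by log2(CPM + 0.1) minus the gene's mean over the 6 libraries. Bbc3 and Sesn1 are blue in all G643W columns, and the deepest reds are single libraries, Plk2 in WT 1 (52.3 CPM) and Phlda3 in WT 3 (2.17 CPM).

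The core of the pathway was expressed in every library. Trp53 had 91.0, 42.2 and 53.2 CPM in G643W libraries 1, 2 and 3, against 74.5, 112 and 109 CPM in WT libraries 1, 2 and 3. The groups overlapped because G643W library 1 lay above WT library 1. Means were 62.1 ± 25.6 CPM in G643W and 98.5 ± 20.8 CPM in WT blasts (SD, n = 3 each). The log2 difference was -0.67 with an SE of 0.33 and an edgeR adjusted p of 0.539; log2 differences below are likewise given ± SE. On the TPM scale Trp53 averaged 21.3 ± 9.44 in G643W and 32.4 ± 5.41 in WT blasts. Its most-read transcripts, Trp53-201 and Trp53-203, differ in length by a single base, so the division of reads between them is uncertain and only the gene total is used.

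Mdm2 had 59.8, 105 and 91.9 CPM in G643W, against 68.4, 65.7 and 72.1 CPM in WT libraries. The WT libraries lay close together, and the G643W libraries lay on both sides of them. The log2 difference was 0.32 ± 0.25 (edgeR adjusted p = 0.633). Mdm4, which binds p53 and masks its activation domain, had 186, 236 and 206 CPM in G643W, against 136, 154 and 196 CPM in WT libraries, with a log2 difference of 0.37 ± 0.23 (edgeR adjusted p = 0.574). In G643W blasts Mdm4 stood at 32.5 ± 2.86 TPM, above Mdm2 at 21.98 ± 5.61 TPM, and in WT blasts they averaged 21.02 TPM for Mdm4 and 16.02 TPM for Mdm2. These sums take in transcripts not annotated as protein-coding, so they are not levels of the coding RNAs alone. The protein-coding Mdm4-210, its most-read transcript, took 45.8% to 51.9% of Mdm4 TPM in G643W and 52.0% to 63.4% in WT libraries. Ppm1d, the phosphatase Wip1 that removes activating phosphates from p53 and its kinases, stayed between 18.7 and 24.1 CPM in G643W and between 15.4 and 23.1 CPM in WT libraries.

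Reads of Mdm2 were divided among several transcripts that differed between libraries. Mdm2-201, of 3099 bases, had 8.67, 36.3 and 25.7 CPM in G643W, against 29.5, 32.5 and 33.1 CPM in WT libraries. Mdm2-202, of 3145 bases, had 18.6, 14.01 and 6.73 CPM in G643W, against 7.40, 2.33 and 4.65 CPM in WT libraries. In G643W library 1 the second therefore exceeded the first, which was not so in the other 5 libraries. Mdm2-209, annotated as a target of nonsense-mediated decay, had 23.0, 37.7 and 43.8 CPM in G643W, against 21.6, 23.7 and 24.1 CPM in WT libraries. These transcripts share most of their sequence, so their shares are model estimates and were not tested.

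Among the genes of cell cycle arrest, 2 of 6 had a positive and 4 of 6 a negative log2 difference. Cdkn1a encodes p21, the inhibitor of cyclin-dependent kinases through which p53 halts the cycle. It had 27.4, 34.2 and 31.6 CPM in G643W, against 99.2, 27.8 and 53.8 CPM in WT libraries. The G643W libraries were close together, and the WT range enclosed all but one of them. Means were 31.1 ± 3.44 CPM in G643W and 60.3 ± 36.2 CPM in WT blasts, with a log2 difference of -0.96 ± 0.43 (edgeR adjusted p = 0.530). Without WT library 1 that difference was -0.40. The 2 transcripts that start in the upstream window printed above together had 0.029, 0.090 and 0.081 CPM in G643W, against 0.63, 0.069 and 1.16 CPM in WT libraries, and the groups overlapped.

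Ccng1, cyclin G1, which recruits a phosphatase to Mdm2, had 48.4, 61.8 and 62.1 CPM in G643W, against 60.7, 77.7 and 76.7 CPM in WT libraries (log2 difference -0.32 ± 0.20). Gadd45a, a growth arrest and stress-signalling protein, had 31.2, 116 and 74.5 CPM in G643W, against 59.96, 33.2 and 26.5 CPM in WT libraries (log2 difference 0.89 ± 0.51, edgeR adjusted p = 0.565). Its levels overlapped through G643W library 1.

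The other arrest and checkpoint genes, Btg2, Plk2 and Plk3, were set apart by a single WT library. Btg2, an antiproliferative gene, had 140, 217 and 190 CPM in G643W, against 442, 115 and 86.9 CPM in WT libraries. Plk2, a polo-like kinase induced by stress, had 2.51, 1.78 and 1.72 CPM in G643W, against 52.3, 0.67 and 0.44 CPM in WT libraries. Plk3, a related kinase, had 18.4, 37.4 and 58.3 CPM in G643W, against 63.6, 6.64 and 11.7 CPM in WT libraries. In the totals of all 3 genes WT library 1 was the highest of the 6 libraries, and the other WT libraries lay below every G643W library. Log2 differences were -0.24 ± 0.61 for Btg2, -3.15 ± 1.68 for Plk2 and 0.48 ± 0.84 for Plk3, with edgeR adjusted p of 0.891, 0.549 and 0.835. Without WT library 1 they were 0.85 for Btg2, 1.85 for Plk2 and 2.05 for Plk3, with the same adjusted p of 0.608 from edgeR. The sign for Btg2 and Plk2 thus changed without that library, and it also changed in some fits that kept it.

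Among the genes of mitochondrial apoptosis, 4 of 9 had a positive and 5 of 9 a negative log2 difference. Bbc3 encodes Puma, a BH3-only protein that frees Bax and Bak to open the outer mitochondrial membrane. It had 6.64, 4.81 and 4.26 CPM in G643W, against 23.2, 15.2 and 12.2 CPM in WT libraries. Every G643W library was below every WT library, with a gap between 6.64 and 12.2 CPM. Means were 5.23 ± 1.25 CPM in G643W and 16.9 ± 5.68 CPM in WT blasts (SD, n = 3 each), a log2 difference of -1.69 ± 0.36. With edgeR the unadjusted p was 0.00224 and the adjusted p 0.340, so the gene did not pass the test, while DESeq2 gave a log2 difference of -1.68 ± 0.38 with an adjusted p of 0.00128. With any single library left out the log2 difference stayed between -1.82 and -1.39.

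The reads of Bbc3 came mostly from 2 transcripts. Bbc3-201, of 1814 bases, which encodes the protein, had 3.17, 2.46 and 2.21 CPM in G643W, against 11.6, 10.2 and 8.30 CPM in WT libraries. Bbc3-203, of 881 bases, annotated with a retained intron, had 3.31, 2.22 and 1.88 CPM in G643W, against 10.3, 3.78 and 3.39 CPM in WT libraries. Both were lower in every G643W library than in every WT library, and for the second the excess of WT library 1 over the other WT libraries was the wider.

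Bax, the effector that forms the mitochondrial pore, had 46.1, 26.4 and 35.4 CPM in G643W, against 82.4, 63.1 and 46.1 CPM in WT libraries. The highest G643W library and the lowest WT library met at 46.1 CPM. Means were 36.0 ± 9.89 CPM in G643W and 63.9 ± 18.1 CPM in WT blasts, with a log2 difference of -0.83 ± 0.30 (edgeR adjusted p = 0.496). The Bax TPM was high, at means of 217 in G643W and 359 in WT blasts, because a transcript of 222 bases took most of it, so TPM is no guide to its level. Aen, an exonuclease that takes part in apoptosis, had 25.4, 7.37 and 15.9 CPM in G643W, against 28.1, 32.7 and 31.6 CPM in WT libraries. The groups did not overlap in CPM, though G643W library 1 came near WT library 1, and they overlapped in TPM. The log2 difference was -0.92 ± 0.43 (edgeR adjusted p = 0.531). The most-read transcript, Aen-201, had 19.9, 4.09 and 10.8 CPM in G643W, against 19.7, 24.2 and 19.1 CPM in WT libraries. For that transcript the groups overlapped through G643W library 1.

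**Figure D2:**
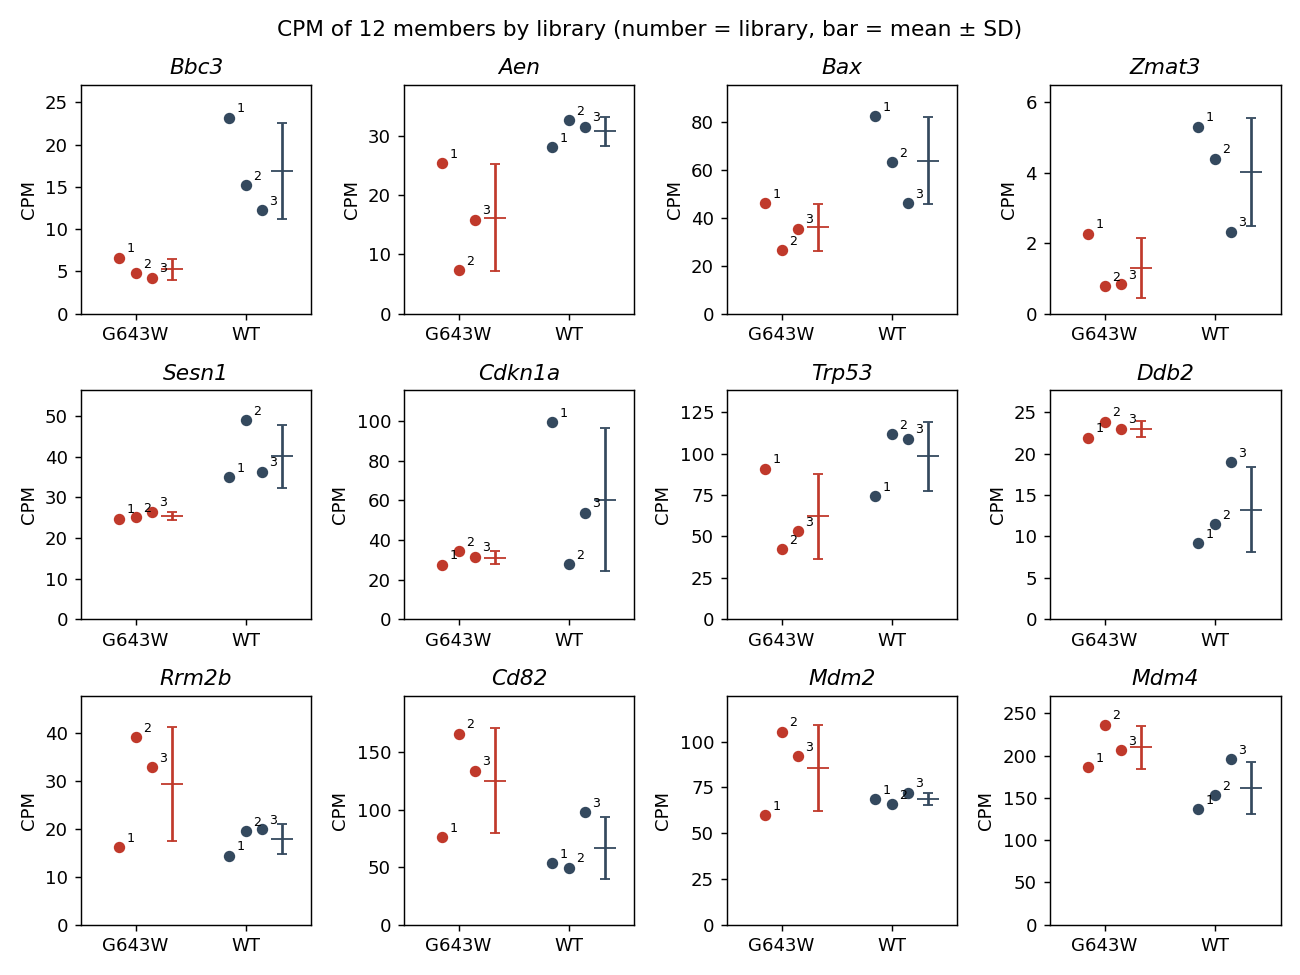
CPM of 12 genes in the 3 G643W libraries (red) and the 3 WT libraries (dark blue), each point numbered by library, with the mean and SD beside them. Bbc3, Aen, Zmat3 and Sesn1 lie lower and Ddb2 higher in every G643W library, while the Bax groups meet at 46.1 CPM.

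Pmaip1 encodes Noxa, a BH3-only protein that acts on Mcl1. It had 111, 41.6 and 69.3 CPM in G643W, against 142, 17.6 and 19.1 CPM in WT libraries, the same arrangement as Plk3, with WT library 1 on top and the other WT libraries lowest (log2 difference 0.31 ± 0.84, edgeR adjusted p = 0.897). Without WT library 1 the difference was 2.01 (edgeR adjusted p = 0.585). Apaf1, the scaffold of the apoptosome, had 152, 198 and 188 CPM in G643W, against 111, 122 and 170 CPM in WT libraries (log2 difference 0.42 ± 0.24, edgeR adjusted p = 0.565).

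Perp, a membrane protein of the PMP22 family, had 15.5, 92.4 and 73.3 CPM in G643W, against 32.2, 17.6 and 29.5 CPM in WT libraries. Trp53inp1, which promotes p53 phosphorylation and autophagy, had 31.9, 143 and 133 CPM in G643W, against 32.8, 52.5 and 68.9 CPM in WT libraries. In both genes G643W libraries 2 and 3 lay above all WT libraries and G643W library 1 lay below them. Log2 differences were 1.19 ± 0.61 for Perp and 1.00 ± 0.56 for Trp53inp1, with edgeR adjusted p of 0.542 and 0.561. Ei24, a protein of the endoplasmic reticulum that takes part in autophagy, had 48.3, 26.8 and 34.8 CPM in G643W, against 54.5, 66.3 and 31.7 CPM in WT libraries (log2 difference -0.47 ± 0.34). Phlda3, which restrains Akt, had 0.34, 0.01 and 0.38 CPM in G643W, against 0.28, 0.40 and 2.17 CPM in WT libraries (log2 difference -1.97 ± 1.20).

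Of the death receptors, Fas was the one well expressed. It had 8.77, 43.4 and 39.7 CPM in G643W, against 18.3, 16.03 and 16.4 CPM in WT libraries. As with Perp, G643W library 1 was the lowest of all libraries and the other G643W libraries the highest (log2 difference 0.86 ± 0.54, edgeR adjusted p = 0.583). Tnfrsf10b, a receptor for the ligand TRAIL, had a log2 difference of -0.06 ± 0.45 at under 3 CPM throughout. Eda2r, a receptor for ectodysplasin, was not tested, with 4 of the 6 libraries at 0 reads.

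Among 4 genes of DNA repair and nucleotide supply, Ddb2, which recognises ultraviolet damage for nucleotide excision repair, had 21.9, 23.8 and 23.0 CPM in G643W, against 9.18, 11.5 and 19.0 CPM in WT libraries. The G643W libraries lay close together and all above the WT libraries, the highest of which was WT library 3. Means were 22.9 ± 0.954 CPM in G643W and 13.2 ± 5.12 CPM in WT blasts, with a log2 difference of 0.79 ± 0.32 (edgeR adjusted p = 0.506). Ddb2 overlaps Acp2 on the other strand, and no source used here states whether strand was used in counting. Reads from any sequence shared by both genes may therefore have been counted for either, and their number was not measured. Acp2 itself had 43.0, 26.6 and 26.6 CPM in G643W, against 32.1, 32.99 and 26.4 CPM in WT libraries.

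Rrm2b, the p53-inducible subunit of ribonucleotide reductase, had 16.2, 39.2 and 32.9 CPM in G643W, against 14.4, 19.6 and 19.98 CPM in WT libraries (log2 difference 0.71 ± 0.36, edgeR adjusted p = 0.540). Again G643W libraries 2 and 3 lay above the WT libraries and G643W library 1 among them. Xpc, the damage sensor of excision repair, had 143, 115 and 106 CPM in G643W, against 110, 209 and 138 CPM in WT libraries, and Polk, a translesion polymerase, stayed between 10.2 and 17.02 CPM in all libraries.

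The metabolic and redox genes were Sesn1, Sesn3 and Tigar. Sesn1, a stress-induced inhibitor of mTORC1 signalling, had 24.7, 25.1 and 26.5 CPM in G643W, against 34.9, 49.1 and 36.4 CPM in WT libraries. The groups did not overlap, and the G643W libraries differed by little among themselves. Means were 25.4 ± 0.922 CPM in G643W and 40.1 ± 7.80 CPM in WT blasts, a log2 difference of -0.66 ± 0.21, with an unadjusted p of 0.0171 and an adjusted p of 0.487 in edgeR. Tigar, which lowers glycolytic flux, had 32.7, 13.8 and 25.4 CPM in G643W, against 15.6, 33.4 and 32.7 CPM in WT libraries (log2 difference -0.18 ± 0.42). Sesn3, a relative of Sesn1, had 7.34, 13.8 and 9.30 CPM in G643W, against 7.18, 7.55 and 17.2 CPM in WT libraries (log2 difference -0.07 ± 0.45). Both overlapped, with differences smaller than their SE.

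Most Sesn1 reads came from the transcript whose start belongs to the window printed above. Sesn1-201, of 2600 bases, had 19.8, 17.8 and 20.3 CPM in G643W, against 30.3, 42.1 and 32.01 CPM in WT libraries, with no overlap. Sesn1-202, of 3809 bases, which starts upstream at a separate first exon, had 4.89, 7.27 and 6.18 CPM in G643W, against 4.61, 7.05 and 4.39 CPM in WT libraries, and there the groups overlapped. The second RefSeq window of Sesn1, for a start at chr10:41810574, held no decamer. Sesn1-202 starts at 41809935, outside that window, so the sequence before its own start was not searched. The difference between the transcripts was not tested.

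**Figure D3:**
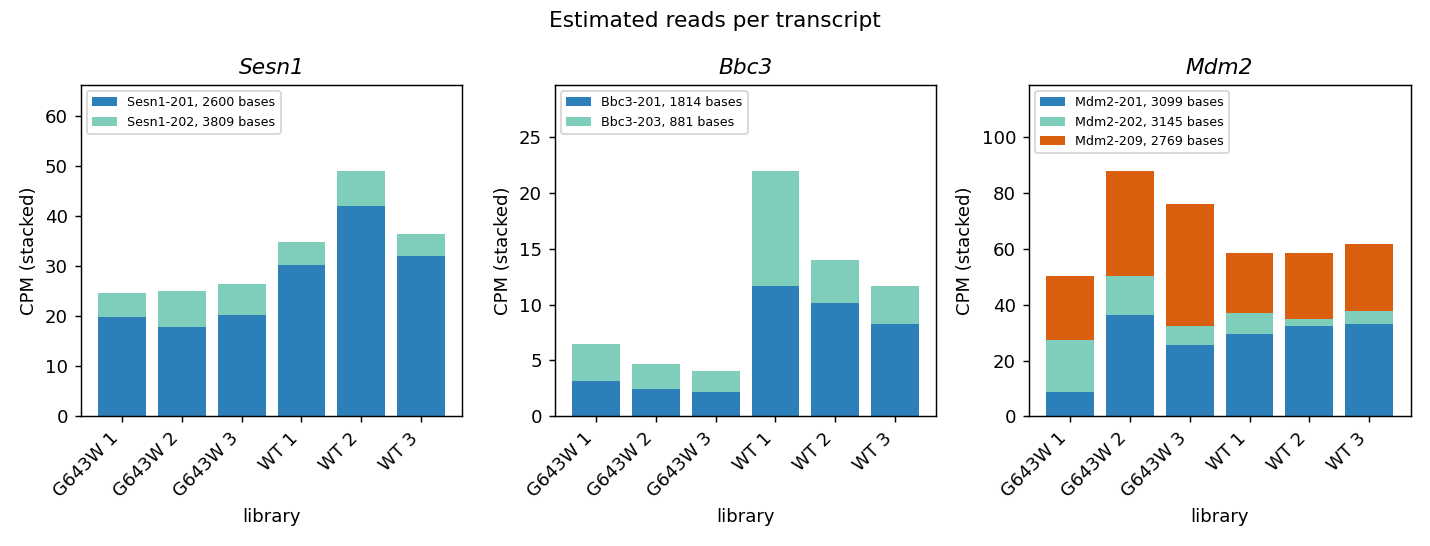
Stacked CPM of the most-read transcripts of Sesn1, Bbc3 and Mdm2 in each library (G643W left of WT), with transcript lengths in the legends; minor transcripts are left out. Sesn1-201 is below 21 CPM in each G643W library and above 30 CPM in each WT library, whereas Sesn1-202 overlaps between the genotypes.

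Zmat3, an RNA-binding zinc finger protein, had 2.27, 0.79 and 0.84 CPM in G643W, against 5.31, 4.40 and 2.32 CPM in WT libraries. The groups did not overlap, but the highest G643W and the lowest WT library lay next to each other, and the log2 difference was -1.63 ± 0.60 (edgeR adjusted p = 0.497). Cd82, a tetraspanin that limits migration, had 75.9, 166 and 134 CPM in G643W, against 53.2, 49.5 and 97.7 CPM in WT libraries. It overlapped through G643W library 1, and the log2 difference was 0.91 ± 0.38 (edgeR adjusted p = 0.511).

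**Figure D4:**
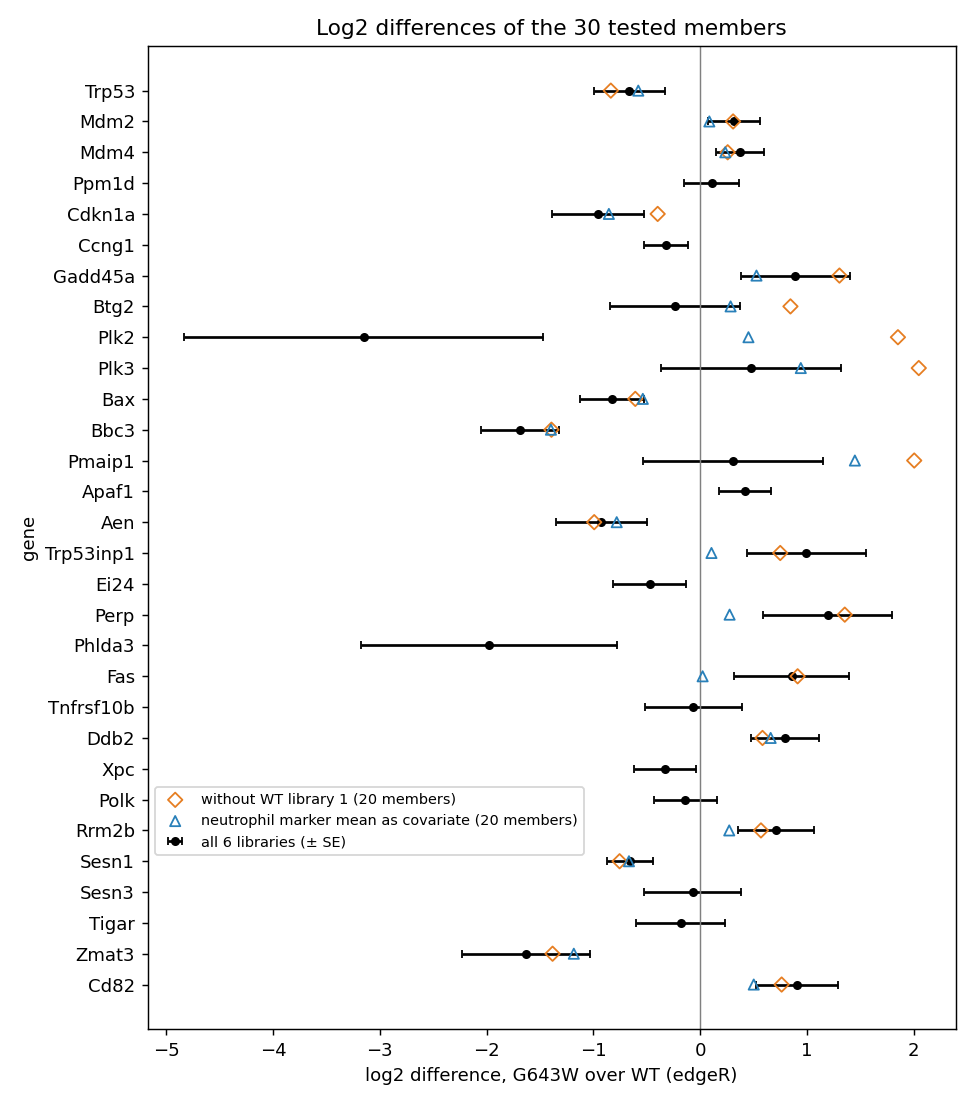
Log2 differences (G643W over WT) of the 30 tested genes with their SE in all 6 libraries (black), and for 20 named genes without WT library 1 (orange) and with the neutrophil marker mean as a covariate (blue). The points for Plk2 and Btg2 cross 0 in both alternatives, whereas Bbc3, Sesn1, Aen and Zmat3 stay below 0.

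Levels also varied within each genotype, in ways noticed after the values were seen. WT library 1 stood above the other WT libraries in some genes, such as Btg2, Plk2, Plk3, Pmaip1 and Cdkn1a. It was the highest of the 6 libraries in 8 of 30 genes and the lowest in 7 of 30. Without WT library 1, the groups did not overlap in 12 of 30 genes, against 28.5% of all genes, and 6 of 30 had an unadjusted p under 0.05, against 7.87% of all genes. The same library was highest in 11 of 12 immediate-early genes, which cells switch on within minutes of stimulation. Their summed CPM was 4558, 3753 and 3740 in G643W libraries 1, 2 and 3, against 14243, 1588 and 2224 in WT libraries 1, 2 and 3. Btg2, Plk2 and Plk3 are also known to respond to such stimulation. The part of handling or stimulation of the cells in these levels was not tested.

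G643W library 1 lay below both other G643W libraries in 17 of 30 genes, such as Perp, Trp53inp1, Fas, Gadd45a, Cd82, Rrm2b and Mdm2. It lay above both in 11 of 30, which were Trp53, Plk2, Bax, Bbc3, Pmaip1, Aen, Ei24, Tnfrsf10b, Xpc, Tigar and Zmat3, and between them in 2. G643W libraries 2 and 3 also had the highest neutrophil gene levels, and G643W library 1 had a summed neutrophil level close to that of WT library 1. With the mean neutrophil level as a covariate, edgeR again called 0 of the 30 genes, and 5 of 30 had an unadjusted p under 0.05, against 7.48% of all genes. The part of neutrophil content in these levels was not tested. Without G643W library 1, the groups did not overlap in 16 of 30 genes, against 43.9% of all genes, and 13 of 30 had an unadjusted p under 0.05, against 20.9% of all genes. The lowest adjusted p in that fit was 0.0940, for Fas, so none passed the test there either.

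**Figure D5:**
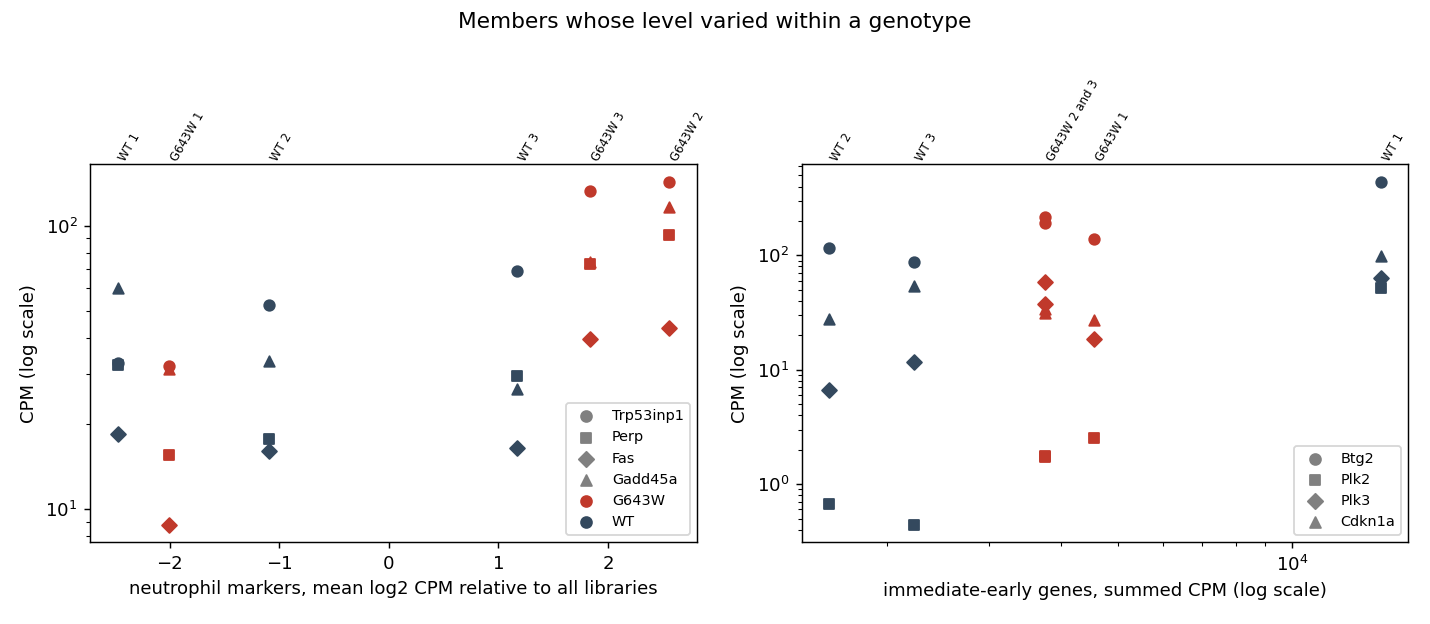
CPM (log scale) of 4 genes against the mean neutrophil marker level (left) and of 4 genes against the summed immediate-early CPM (right) in each library, G643W in red and WT in dark blue. On the left G643W 2 and G643W 3 lie highest on both axes. WT 3, next on the neutrophil axis, had 68.9 CPM of Trp53inp1, 29.5 of Perp, 16.4 of Fas and 26.5 of Gadd45a, the last being the lowest Gadd45a level. On the right WT 1 lies apart with the highest Btg2, Plk2, Plk3 and Cdkn1a.

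No gene of the wider p53 lists passed the edgeR test. Of 30 tested further p53 targets, edgeR called 0, with 4 at an unadjusted p under 0.05 (9.66% of all genes), 14 positive (49.2% of all genes) and 16 negative log2 differences and a median of -0.03. These counts lie near those over all genes. The lowest p belonged to Plxnb2, a semaphorin receptor, with 28.7, 13.9 and 66.9 CPM in G643W, against 213, 128 and 177 CPM in WT libraries (log2 difference -2.24 ± 0.56). Its adjusted p was 0.409 in edgeR and 0.0175 in DESeq2, and it was the single gene of these 30 that DESeq2 called. Of 30 kinases, cofactors and other modifiers of p53, edgeR called 0 and DESeq2 called 0, with 1 gene at an unadjusted p under 0.05 (9.66% of all genes) and a median log2 difference of -0.06. That gene was Nop53, a nucleolar protein, with 176, 169 and 147 CPM in G643W, against 348, 308 and 222 CPM in WT libraries (log2 difference -0.83 ± 0.24, edgeR adjusted p = 0.454). Cdkn2a, the locus of the Mdm2 inhibitor p19Arf, had 3.58, 6.84 and 5.09 CPM in G643W, against 15.03, 5.65 and 6.77 CPM in WT libraries. The p53 relatives Trp63 and Trp73 were at or under 0.16 CPM in every library and were not tested.

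Genes that p53 is known to lower through p21 and the DREAM repressor complex lay on one side. All 22 of these mitotic and S phase genes, such as Cdk1, Plk1, Aurkb and Foxm1, had positive log2 differences, with a median of 0.91 beside -0.01 over all genes, yet edgeR called 0 of them. At an unadjusted p under 0.05 there were 17 of 22, against 9.66% of all genes. DESeq2 called 3 of 22, against 2.07% of all genes, and in 15 of 22 every G643W library was above every WT library, against 7.05% of all genes. Kif23, a kinesin of cell division, had 119, 179 and 143 CPM in G643W, against 60.6, 78.6 and 67.4 CPM in WT libraries, with a log2 difference of 1.09 ± 0.23 (adjusted p = 0.327 in edgeR and 0.0271 in DESeq2). Such genes move together with the share of dividing cells, so they are not separate observations, and the part of p21 in their levels was not tested. This list was chosen with earlier results of these data known, so its counts only describe the list. G643W library 2 was the highest library in 20 of 22 and G643W library 1 in the other 2. With the neutrophil level as a covariate 10 of 22 had an unadjusted p under 0.05, against 7.48% of all genes, and edgeR again called 0.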

How the data were processed

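RNA from sorted blasts was sequenced in 3 G643W and 3 WT libraries made with a TruSeq V2 kit, per the labels' protocols. The authors deposited per-transcript estimated counts of reads and TPM from Salmon 0.12.0, with bcl2fastq and the builds mm10 and GRCm38.p6, per the submitters' processing notes. For the Salmon options, its index and its use of strand, no value is given in the sources used. Each table held 136288 transcripts, of which 136176 matched GENCODE M21 and were summed to 53458 genes and rounded. The 112 unmatched transcripts took at most 0.0365% of reads. Depth was 61167075 to 101189225 reads.

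Genes passing filterByExpr with a minimum count of 10 (20654 genes) were tested with edgeR 4.0.16 (R 4.3.3), using TMM scaling and quasi-likelihood tests of G643W against WT, with Benjamini-Hochberg adjustment and a threshold of 0.05. The biological coefficient of variation was 52.8%. DESeq2 1.42.0, limma 3.58.1 on log2(TPM + pseudocount) and other scalings and filters were alternatives. The code was tested on simulated data. The list of genes, the role groups and the further lists were chosen with earlier results of these data known. Given library by library by rule were Trp53, Mdm2, Mdm4, Cdkn1a, the genes whose groups did not overlap and the 10 with the lowest unadjusted p, which made 12; a further 8 (Perp, Trp53inp1, Fas, Gadd45a, Btg2, Plk2, Plk3, Pmaip1) and the immediate-early list were singled out after their values were seen. In other lists the gene with the lowest p was named. No transcript of another gene was at least 95% identical over at least 50% of the most-read transcript of any of the 31 genes. Shorter matches were present. The longest by share were Gm8616 with Rrm2b (96.1% identical over 1051 bases, 23.0% of the length) and Gm45808 with Bax (100% over 193 bases, 22.3%).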

Additional observations from a re-analysis of the deposited data

How the results depend on the processing

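Over all genes, edgeR called 25 (11 higher and 14 lower in G643W). The number was 16 with no scaling factor (8 lower), 104 with no filter (37 higher and 67 lower), 10 with length-scaled counts (2 lower), 427 with DESeq2 (164 higher and 263 lower), and 43 with limma on log2(TPM + 0.1) (19 higher and 24 lower). With limma on log2(TPM + 1) 7 were lower and with the neutrophil covariate 8. With the replicate number as a block it was 0 (0 higher and 0 lower), with 1772 genes at an unadjusted p under 0.05. Leaving out single libraries gave 0 to 16 genes (0 to 13 higher and 0 to 7 lower). DESeq2 called 1 p53 gene (Bbc3), 1 further target and 3 of the genes lowered through p21 and DREAM, where the other alternatives called 0. The median log2 difference of the p53 list lay between -0.15 and 0.12 and was above 0 with length-scaled counts (0.03), both limma fits (0.07 and 0.12) and the block (0.06).

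Replicate numbers were no sign of pairing: deviations of same-numbered libraries correlated at 0.11, -0.16 and 0.18, and the block called 0 of the p53 genes.

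Over 15 alternatives 23 of 26 named genes kept the sign of their log2 difference, and 12 of 390 values reversed. Btg2 was at 0.17 and 0.19 with limma (pseudocounts 1 and 0.1), 0.18 with the block and 0.29 with the covariate, and between -0.55 and 0.85 when single libraries were left out. Plk2 was at 0.17 with the block and 0.45 with the covariate, and between -3.68 and 1.85 when single libraries were left out. Pmaip1 lay between -0.10 and 2.01 when single libraries were left out. The causes were not tested. Genes whose groups did not overlap numbered 5 to 16 of 30 with single libraries left out, where 20.7% to 43.9% of all genes did not overlap. Phlda3, Zmat3 and Eda2r had few reads.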
